A study of Mus musculus with 6 samples.

Results

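Regulatory T cells are CD4 T cells that restrain immune responses, and they are marked by the transcription factor Foxp3. They carry the interleukin-2 receptor at a high level and live on interleukin-2 that other T cells make, which reaches Foxp3 through Jak3 and Stat5. Effector regulatory T cells add Prdm1, the gene of the transcription factor Blimp-1, and secrete interleukin-10. In the liver they are known for holding back inflammation. Prdm1 and Il10 are not particular to them: both are also used by effector helper T cells, B lineage cells and macrophages. Il2rb is carried by NK cells and memory T cells too.

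The members were chosen by gene symbol. The rule used no measured value, but it was written with earlier results of these data known, and it named 6 genes, Foxp3, Il10, Prdm1, Il2rb, Il2ra and Ikzf2, of which the first 5 were rows of the table used here, out of 750 genes in all. Ikzf2 was not analysed here. RNA of CD4 T cells from the livers of Mus musculus was counted on the nCounter platform, in which barcoded probes are hybridised to RNA and counted without amplification. The control group held the libraries Chow 1 to Chow 3, described as Control, and the MASH group held FFC 1 to FFC 3, described as MASH, with 3 biological replicates in each. Neither label is spelled out: MASH commonly stands for metabolic dysfunction-associated steatohepatitis, a fatty liver disease with inflammation, and FFC for a fat-, fructose- and cholesterol-rich diet. Strain, genotype, sex, age, length of diet, how the CD4 T cells were isolated and whether animals were pooled are not stated in the labels. Libraries are called control 1 to 3 and MASH 1 to 3 below.

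Total counts ran from 726836 to 900322 in control and from 623212 to 693640 in MASH. The deposited value is log2 of a whole-number count times 1 scale factor per library, and each MASH factor (1.11 to 1.26) was above each control factor (0.707 to 1.10). The median of all 748 tested genes was accordingly 0.43 (log2) higher in MASH, and differences are best read against that shift. The 10 CD4 T cell markers in the table lay above the background floor in all 6 libraries. So did the 2 CD8 genes, 4 of 8 macrophage, Kupffer cell and monocyte markers and 5 of 7 dendritic cell markers. Lying above the floor thus does not tell the labelled cell type from others. The floor is, per library, the mean plus 2 SD of 5 genes used chiefly in other organs, Ins2 and Mbp among them.

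The promoters of the genes that the results turn on are shown first, from RefSeq on GRCm38.p6, from 250 bases before to 50 bases after the annotated start. RefSeq's promoter table held 3 of the 5 genes, Foxp3 with 2 starts, Prdm1 and Il2ra. They are given because Foxp3 defines the cells, Prdm1 was the only 1 of the 5 to pass the test, and Il2ra ran opposite to Foxp3 within both groups. Capitals mark matches, on either strand, to TTCNNNGAA (the palindromic STAT motif), GGAAA (the NFAT core), TGANTCA (AP-1) and TATAAA (the TATA box).
Foxp3, first start, chrX:7579426-7579725, plus strand: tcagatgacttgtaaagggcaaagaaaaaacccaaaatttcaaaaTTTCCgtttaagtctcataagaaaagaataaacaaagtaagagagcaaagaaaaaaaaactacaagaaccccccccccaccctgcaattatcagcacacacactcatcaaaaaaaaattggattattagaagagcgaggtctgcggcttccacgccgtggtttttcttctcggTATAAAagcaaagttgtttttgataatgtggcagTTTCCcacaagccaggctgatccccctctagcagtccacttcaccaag
Foxp3, second start, chrX:7580233-7580532, plus strand: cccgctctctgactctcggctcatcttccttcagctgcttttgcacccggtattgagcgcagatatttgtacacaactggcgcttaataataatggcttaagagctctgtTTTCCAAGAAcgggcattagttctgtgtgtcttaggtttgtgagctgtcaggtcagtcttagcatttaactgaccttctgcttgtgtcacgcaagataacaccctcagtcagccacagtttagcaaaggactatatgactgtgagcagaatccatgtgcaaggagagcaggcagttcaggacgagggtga
Prdm1, chr10:44458699-44458998, minus strand: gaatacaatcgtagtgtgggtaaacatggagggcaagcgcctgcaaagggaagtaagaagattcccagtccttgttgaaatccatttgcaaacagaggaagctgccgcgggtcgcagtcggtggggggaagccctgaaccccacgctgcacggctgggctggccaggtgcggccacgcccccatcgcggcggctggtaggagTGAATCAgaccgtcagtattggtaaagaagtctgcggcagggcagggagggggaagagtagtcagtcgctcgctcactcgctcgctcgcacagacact
Il2ra, chr2:11642542-11642841, plus strand: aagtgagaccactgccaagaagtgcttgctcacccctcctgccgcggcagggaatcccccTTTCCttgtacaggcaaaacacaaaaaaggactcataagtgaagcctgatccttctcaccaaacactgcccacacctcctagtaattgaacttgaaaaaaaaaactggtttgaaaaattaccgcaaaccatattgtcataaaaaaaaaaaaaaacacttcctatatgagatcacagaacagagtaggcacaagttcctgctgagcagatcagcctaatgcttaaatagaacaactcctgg
The first Foxp3 start has a TATA box at bases -32 to -27 from the start and GGAAA on the opposite strand at -205 to -201 and at 3 to 7. The second Foxp3 start has the STAT motif at -139 to -131, overlapped by GGAAA on the opposite strand at -140 to -136. The Prdm1 promoter has 1 AP-1 match at -48 to -42, and the Il2ra promoter has GGAAA on the opposite strand at -190 to -186. Over 32851 RefSeq promoters of the same length, 8.30% held TTCNNNGAA, 61.3% GGAAA, 7.81% TGANTCA and 13.6% TATAAA. A match describes letters in this window and was not tested as a binding site.

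The question of the design was how hepatic CD4 T cells in MASH differ from those of control livers, and here how far the genes of regulatory T cells do. Prdm1 rose in MASH, by 1.78-fold. Il10 and Il2rb were also higher in each MASH library than in each control library, by 1.91-fold and 1.5-fold, but did not pass the test. Foxp3 and Il2ra overlapped between the groups, at 1.07-fold and 1.17-fold. In limma's moderated test on all 748 genes, with Benjamini-Hochberg adjustment, 1 of the 5 genes passed as higher at 0.05 and none as lower, against 17.4% of all tested genes called higher and 0.936% called lower. Groups were apart with MASH higher for 3 of the 5, against 34.4% of all tested genes. When the library median was subtracted, none of the 5 passed in limma (1 at an unadjusted p under 0.05, Prdm1; 14.4% of all genes were called higher), and only Prdm1 remained apart (28.3% of all genes). Of the 18 genes named with their values in this text as risen, fallen or passing, all 18 passed without control 3 and 17 without MASH 3 (all but Il6st), but only Klrk1 without control 1 and none without control 2, MASH 1 or MASH 2.

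**Figure D1:**
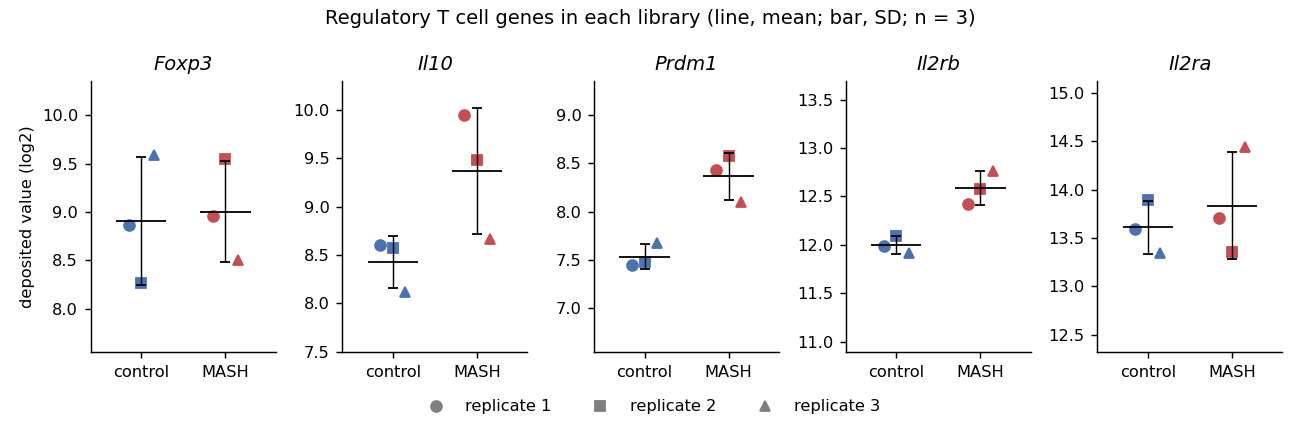
Deposited log2 values of Foxp3, Il10, Prdm1, Il2rb and Il2ra in each of 6 libraries (vertical axes, each spanning the same length; symbols, replicate number; line, group mean; bar, SD, n = 3). Prdm1, Il10 and Il2rb have every MASH library above every control library, while Foxp3 and Il2ra overlap.

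Foxp3, the lineage factor of regulatory T cells, stood at log2 values of 8.86, 8.27 and 9.58 in control 1 to 3 and of 8.95, 9.55 and 8.51 in MASH 1 to 3. The highest library of all was a control and the lowest was also a control, so that the MASH range lay inside the control range. The means were 8.90 ± 0.66 (control) and 9.003 ± 0.52 (MASH), each with its SD over 3 libraries, and the difference was 0.10 with a 95% interval from -0.78 to 0.98 (limma adjusted p = 0.89). A rise or a fall of somewhat under 2-fold therefore lay within the error of these 6 libraries. In counts before scaling Foxp3 had 601, 436 and 697 in control and 421, 592 and 327 in MASH. Relative to the mean count of the other-organ genes of the same library it stood at 5.85, 4.53 and 6.71 times in control and 3.08, 3.77 and 2.62 times in MASH. On this measure, for which no test was made, every MASH library lay below every control library. The mean count of the other-organ genes was itself higher in MASH, at 102.8, 96.2 and 103.8 in control and 136.6, 157 and 125 in MASH. A gene with unchanged counts therefore falls on this measure, and the share of all genes that do was not worked out. The sign of the Foxp3 difference also turned with the scaling, to -0.29 after centring on the median (adjusted p = 0.44) and -0.50 when libraries were centred on the Cd3 and Cd4 genes (adjusted p = 0.35). Without control 3 and MASH 3 it was 0.69 (adjusted p = 0.042), in a setting in which 61.5% of all genes were called higher. In bulk RNA, fewer cells of a type and less RNA per cell cannot be told apart.

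Foxp3 varied more within the groups than most genes. Its pooled SD was 0.594 (log2), against a median of 0.327 over the tested genes, and 87.8% of the genes had a smaller one. The genes with the most similar course over the 6 libraries were Ltb, C4a and Ikbke, with root mean square differences of 0.10, 0.16 and 0.17 between mean-subtracted log2 values, against a median of 0.46 over all genes. Ltb, the gene of lymphotoxin beta, read 10.79, 10.38 and 11.71 in control and 10.95, 11.37 and 10.46 in MASH. Like Foxp3 it was highest in control 3 and, among MASH libraries, in MASH 2. After quantile normalization Ltb was still the second nearest to Foxp3, whereas C4a, which exceeded the floor in only 2 libraries, stood at rank 70.

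Il2ra, the alpha chain that gives the interleukin-2 receptor its high affinity, is abundant on regulatory T cells and is also induced on any activated T cell. It read 13.59, 13.90 and 13.35 in control 1 to 3 and 13.71, 13.36 and 14.44 in MASH 1 to 3. MASH 3 was the highest library, but MASH 2 lay level with the lowest control, so that the groups overlapped. The means were 13.61 ± 0.28 and 13.83 ± 0.55 (SD, n = 3 each), a difference of 0.22 (95% interval -0.49 to 0.94; limma adjusted p = 0.64). Centring on the median turned the sign (-0.16; adjusted p = 0.81), as did leaving out MASH 3 (-0.08; adjusted p = 0.83). In counts Il2ra had 15931, 21568 and 9449 in control and 11385, 8292 and 19901 in MASH.

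Within each group Foxp3 and Il2ra were ordered in opposite ways. In control, Foxp3 was highest in library 3 and lowest in library 2, and Il2ra was highest in library 2 and lowest in library 3. In MASH, Foxp3 was highest in library 2 and lowest in library 3, and Il2ra was highest in library 3 and lowest in library 2. The log2 ratio of Foxp3 to Il2ra within a library, which the scale factor does not touch, ran from -5.63 to -3.76 in control and from -5.93 to -3.81 in MASH. The group means of this ratio differed by -0.12 (exact two-sided permutation test, p = 0.70; adjusted p = 0.78 over 10 ratios between the 5 genes; n = 3 each). With 3 libraries per group these exact tests cannot go below 0.1. The pattern was seen after the values were known and rests on 6 libraries. Il2rb had the same order as Il2ra in control and was also highest in MASH 3. The share of all genes that run opposite to Foxp3 was not worked out. The genes nearest to Il2ra in course were Bcl2l1, an anti-apoptotic gene, and Eno1 and Pkm, enzymes of glycolysis, with root mean square differences of 0.19, 0.19 and 0.23 against a median of 0.63 over all genes.

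**Figure D2:**
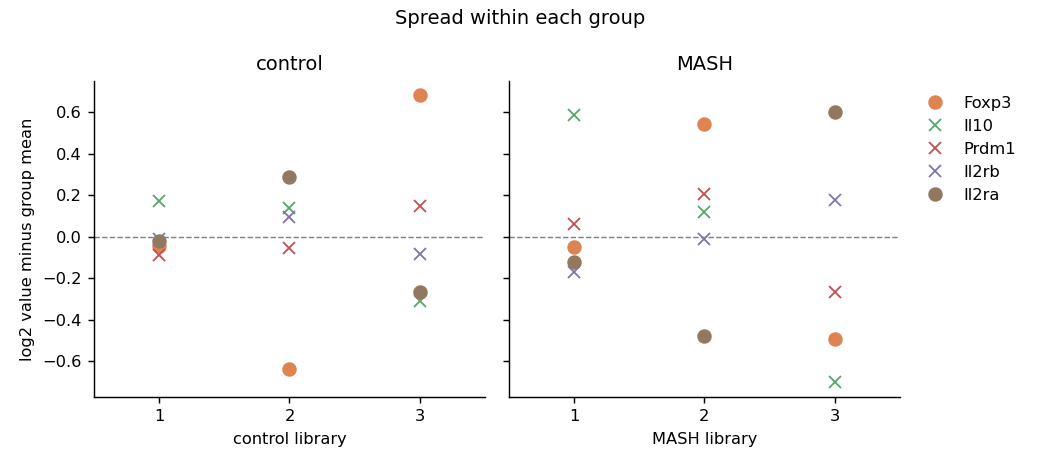
Log2 value minus group mean (vertical axis) of the 5 genes in each control library (left) and each MASH library (right). Foxp3 and Il2ra (filled circles) lie on opposite sides of 0 in libraries 2 and 3 of both groups, and crosses mark the other 3 genes.

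Il2rb, the beta chain shared by the receptors of interleukin-2 and interleukin-15, carries the signal into the cell. It read 11.99, 12.09 and 11.92 in control and 12.42, 12.58 and 12.77 in MASH. These were the tightest groups of the 5 genes, with a pooled SD of 0.138 (7.22% of the genes had a smaller one), and they did not overlap. The means were 12.00 ± 0.09 and 12.59 ± 0.17 (SD, n = 3 each), a difference of 0.59 (95% interval 0.11 to 1.06; limma adjusted p = 0.077). After centring on the median the difference was 0.20 (adjusted p = 0.58), and relative to the Cd3 and Cd4 genes it was -0.01 (adjusted p = 0.99). Counts before scaling overlapped, at 5245, 6184 and 3509 in control and 4652, 4834 and 6255 in MASH. The gene with the nearest course was Rbpj, a nuclear partner of Notch, with a root mean square difference of 0.04 against a median of 0.41, and it stayed the nearest after quantile normalization. Hif1a (0.11) and the integrin gene Itgal (0.14) followed. NK cells and CD8 T cells also carry Il2rb. Of the 8 NK cell markers tested 4 passed as higher, against 17.4% of all tested genes. Of the 8, 3 lay below the background floor in all libraries, and none was at 0. Klrk1, which encodes the activating receptor NKG2D, rose by 1.63 ± 0.22 (SE; adjusted p = 0.013). The 8 markers' summed linear value was 1594 to 2496 in control and 3009 to 4555 in MASH. The 2 CD8 genes summed to 389.8 to 459 in control and 521 to 794 in MASH, and neither Cd8a (0.46, adjusted p = 0.18) nor Cd8b1 (0.75, adjusted p = 0.070) passed. After centring on the median 4 of the 8 NK cell markers passed as higher, against 14.4% of all genes. After quantile normalization 1 did, against 4.01%, and the 2 CD8 genes had a median difference of 0.04. The part of NK cells and CD8 T cells in the Il2rb difference was not tested.

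The other genes listed with the interleukin-2 system did not share a direction. Il2, the cytokine itself, read 9.38, 10.06 and 8.62 in control and 9.94, 9.97 and 9.75 in MASH, so that 1 control library exceeded all MASH libraries (difference 0.54, adjusted p = 0.30). Il2rg, the common gamma chain, differed by 0.13 (adjusted p = 0.70). Of 16 tested genes listed under interleukin-2 and interleukin-15 signalling 10 stood above 0 and 6 below. Of the 16, 1 passed as higher and 1 as lower, against 17.4% and 0.936% of all genes. Their median was 0.19 against 0.43 over all genes. The genes that passed, Il4ra and Il7, belong to other cytokines that the list also holds. The one that fell was Il4ra, the receptor chain of interleukin-4, from 11.46, 10.93 and 11.66 in control to 10.41, 10.28 and 10.12 in MASH (-1.08 ± 0.25, SE; adjusted p = 0.031). Il7, the gene of interleukin-7, passed as higher (0.83, adjusted p = 0.048), but lay below the background floor in all 6 libraries and stood at 0.07 after quantile normalization. Its receptor Il7r differed by 0.97 (adjusted p = 0.17), with 1 control library inside the MASH range.

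Il10, the gene of the anti-inflammatory cytokine interleukin-10, read 8.60, 8.57 and 8.12 in control and 9.95, 9.48 and 8.66 in MASH. MASH 1 was the highest library, and the gap between the lowest MASH and the highest control library was small, since MASH 3 stood near control 1. The means were 8.43 ± 0.27 and 9.37 ± 0.65 (SD, n = 3 each), a difference of 0.93 ± 0.34 (SE; 95% interval 0.15 to 1.71; limma adjusted p = 0.083). Without MASH 3 the difference was 1.28 (adjusted p = 0.019), and after centring on the median it was 0.55 (adjusted p = 0.27). Before scaling the counts overlapped, with 503, 537 and 253 for control and 840, 566 and 364 for MASH. The nearest genes in course were Ctla4, Ms4a2 and Ccl4, with root mean square differences of 0.22, 0.25 and 0.26 against a median of 0.59. Ms4a2, a mast cell and basophil gene, lay below the floor in all libraries, and Ccl4 encodes a chemokine of activated T cells and macrophages. Ctla4, an inhibitory receptor that regulatory T cells carry constantly, read 10.74, 11.05 and 10.84 in control and 12.07, 11.78 and 10.79 in MASH. In MASH it followed the order of Il10, highest in MASH 1 and lowest in MASH 3, and its groups overlapped (0.67, adjusted p = 0.18).

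Macrophages make interleukin-10 as well, and their markers were higher in the same libraries. Of 8 macrophage, Kupffer cell and monocyte markers 5 passed as higher and none as lower, against 17.4% and 0.936% of all tested genes. Their median was 1.80, with none at 0 and 4 above the floor in all libraries. The 5 were C1qa, C1qb, Fcgr1, Fcgr4 and Itgam. The summed linear value of all 8 was 1123 to 2280 in control and 2576 to 6009 in MASH. Fcgr4, an Fc receptor gene of these cells, rose by 2.07 ± 0.38 (SE; adjusted p = 0.024) and was lowest among the MASH libraries in MASH 3 (8.07, against 9.02 and 9.44), as Il10 was. The median over all genes was lowest there too (8.47, against 8.76 in MASH 1 and 8.96 in MASH 2). Fcgr4 was highest in MASH 2, but Il10 in MASH 1. The part of macrophages, Kupffer cells and monocytes in the Il10 difference was not tested. Of 13 B cell and plasma cell markers 2 passed as higher, Cr2 and Tnfrsf17, both below the floor in all libraries, and none as lower (median 0.21), with sums of 4826 to 6073 in control and 5031 to 5211 in MASH, and none was at 0. After centring on the median none of these passed as higher in limma (2 at an unadjusted p under 0.05) and 3 as lower (median -0.18). Of 12 neutrophil, mast cell and basophil markers, a list that holds Ms4a2, 6 passed as higher and none as lower (median 0.97). After centring 6 passed as higher, against 14.4% of all genes, and after quantile normalization 1, against 4.01%. Of the 12, 8 lay below the floor in all libraries and none was at 0, with sums of 814 to 1466 in control and 1494 to 2379 in MASH. Their part in the Il10 difference was not tested.

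In the interleukin-10 family and its signalling, Il10 included, 0 of 8 genes passed in limma (4 at an unadjusted p under 0.05, all higher, and 1 adjusted in voom), with 7 above 0 and a median of 0.61. Over all tested genes 17.4% were called higher. Il10ra, the receptor chain that binds interleukin-10, differed by 0.79 (adjusted p = 0.10), with control 3 (9.43) inside the MASH range of 9.35 to 9.95. Il22, a relative of Il10 made by helper T cells, read 7.27, 9.87 and 8.27 in control and 11.18, 9.65 and 9.60 in MASH. Its spread within groups was wide and the groups overlapped (1.67 ± 0.66, SE; adjusted p = 0.10).

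Prdm1 read 7.44, 7.48 and 7.68 in control and 8.43, 8.57 and 8.10 in MASH. Both groups were tight and apart, with MASH 3 the lowest and MASH 2 the highest MASH library. The means were 7.53 ± 0.13 and 8.37 ± 0.24 (SD, n = 3 each), a difference of 0.83 ± 0.22 (SE; 95% interval 0.33 to 1.34; limma adjusted p = 0.042). After centring the difference was 0.44 (adjusted p = 0.055), after quantile normalization 0.22 (adjusted p = 0.35) and relative to the Cd3 and Cd4 genes 0.23 (adjusted p = 0.53). In voom on the counts Prdm1 passed (0.63, limma adjusted p = 0.015), in a setting that called 191 of the 748 genes higher, against 130 on the deposited values. Leaving out 1 library ended the call in 4 of 6 cases: the adjusted p was 0.16 without control 1 or control 2, 0.15 without MASH 1 and 0.16 without MASH 2, with differences between 0.73 and 0.97 over all 6.

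Prdm1 had few counts, 225, 252 and 186 in control and 292, 301 and 246 in MASH. They lay above the floor in all 6 libraries, but only 2.19, 2.62 and 1.79 times the mean count of the other-organ genes in control and 2.14, 1.92 and 1.97 times in MASH. On that measure the groups overlapped. The other-organ genes themselves were higher in MASH on the deposited scale, with a median difference of 1.00 over 5 and 3 of them past the test. What part of the Prdm1 difference comes from the background was not tested. With the mean of these genes subtracted from every value, Prdm1 differed by 0.75 (adjusted p = 0.098). The nearest genes in course were Hist3h2ba, a histone gene, Tyk2, a Janus kinase, and H2-Q2, with root mean square differences of 0.08, 0.09 and 0.10 against a median of 0.37. After quantile normalization these stood at ranks 331, 27 and 20, and H2-Q2 lay below the floor in all libraries.

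**Figure D3:**
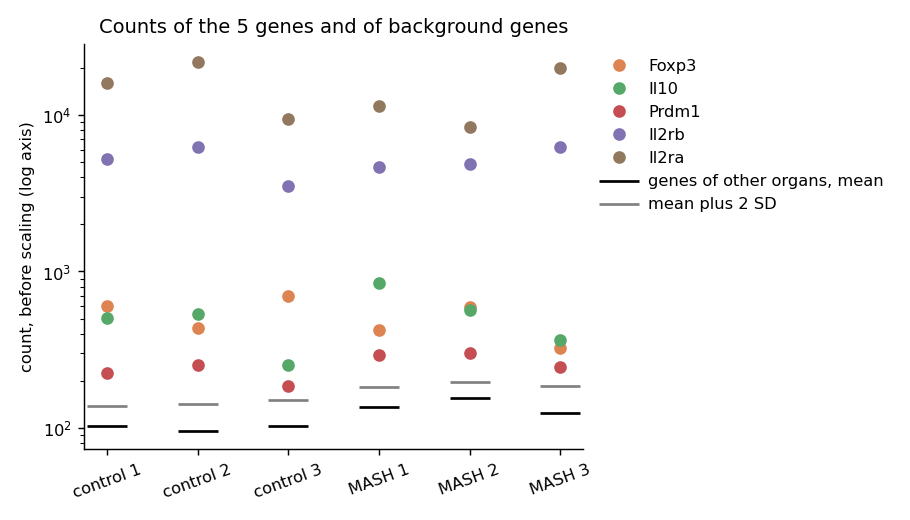
Counts before scaling (log axis) of the 5 genes in each library, with the mean count of 5 genes of other organs (black bars) and that mean plus 2 SD (grey bars). Prdm1 lies closest to the bars, at 1.79 to 2.62 times the mean, and the bars are higher in the MASH libraries.

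Genes known to switch on Il10 or Prdm1 were mixed. Of 17 tested 4 passed as higher and 1 as lower, against 17.4% and 0.936% of all genes. Their median was 0.27 against 0.43 over all genes. Maf, a transcription factor that drives Il10 in helper T cells, read 7.38, 7.48 and 7.48 in control and 8.68, 8.97 and 8.04 in MASH (1.12 ± 0.27, SE; adjusted p = 0.036; 0.73 after centring, adjusted p = 0.038). Its groups were apart, with MASH 3 again the lowest of the MASH libraries. Stat4, which relays interleukin-12, rose by 1.19 (adjusted p = 0.036; 0.80 after centring, adjusted p = 0.032). Under quantile normalization neither Maf (0.58, limma adjusted p = 0.15) nor Stat4 (0.70, limma adjusted p = 0.058) passed. Relative to the Cd3 and Cd4 genes they did not pass either (limma adjusted p = 0.23 for both). On the deposited values Il27, a subunit of a cytokine that induces Il10, also passed (1.47, adjusted p = 0.043) but lay below the floor in every library. So did Il12b, a subunit of interleukin-12 (0.87, adjusted p = 0.048; 0.087 after quantile normalization). Il6st, the shared signalling chain of the interleukin-6 and interleukin-27 receptors, fell by 0.82 (adjusted p = 0.048; -1.21 after centring). Part of its values lay below the floor, and with the floor applied it stood at -0.63 (limma adjusted p = 0.058).

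Of 10 tested genes that Blimp-1 opposes or works beside, none passed as higher (2 did so at an unadjusted p under 0.05, and Eomes passed as higher in voom) and 1 passed as lower, with a median of 0.10. Over all tested genes 17.4% were called higher and 0.936% lower. Ccr7, a homing receptor of naive T cells, fell from 12.78, 12.45 and 13.03 in control to 11.48, 11.65 and 12.18 in MASH (-0.99 ± 0.27, SE; adjusted p = 0.043). Bcl6, the repressor that opposes Blimp-1, differed by 0.31 (adjusted p = 0.58) and exceeded the floor in only 1 library. Eomes, a T-box factor of effector lymphocytes, differed by 1.11 (adjusted p = 0.057).

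None of the 4 genes of regulatory T cell identity in the table passed in limma (0 at an unadjusted p under 0.05, and 0 in voom), namely Foxp3, Il2ra, Ctla4 and Tnfrsf4, and their median was 0.27. Tnfrsf4, the costimulatory receptor OX40, differed by 0.32 (adjusted p = 0.34). Of 12 genes of effector regulatory T cells and suppression 3 passed as higher and none as lower, with a median of 0.70, against 17.4% of all genes called higher, and 2 passed after centring, against 14.4%. These shares are near those over all genes. Beside Prdm1 these were Tigit, a co-inhibitory receptor, and Tnfrsf9, a costimulatory receptor, which are also carried by other activated T cells. Tigit read 8.92, 8.76 and 8.90 in control and 10.62, 10.80 and 9.82 in MASH (1.55 ± 0.29, SE; adjusted p = 0.024). Tnfrsf9 read 8.41, 8.44 and 8.63 in control and 9.71, 9.69 and 9.44 in MASH (1.12 ± 0.21, SE; adjusted p = 0.024). Both kept the groups well apart, and both passed after centring (adjusted p = 0.017 and 0.020) and under quantile normalization (0.022 and 0.025), which calls 4.01% of all genes higher and does not call Prdm1. Relative to the Cd3 and Cd4 genes neither passed in limma (Tigit 0.96, adjusted p = 0.063, and Tnfrsf9 0.52, adjusted p = 0.20). Pdcd1, the inhibitory receptor PD-1, differed by 1.32 (adjusted p = 0.055).

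Upstream of Foxp3, the median of 15 tested inducers and partners was 0.17. None passed as lower and 2 passed as higher, against 17.4% of all genes called higher. The 2 were Nr4a2, an orphan nuclear receptor that can drive Foxp3 (1.03 ± 0.23, SE; adjusted p = 0.030), and Hif1a, the oxygen-sensing factor (0.75 ± 0.21, SE; adjusted p = 0.043). After centring Nr4a2 passed (0.64, adjusted p = 0.046) and Hif1a did not (0.37, adjusted p = 0.32). Foxp1, a relative of Foxp3 tied to T cell quiescence, stood at -0.53 (adjusted p = 0.13), and it passed as lower once libraries were centred (-0.92, adjusted p = 0.017). In TGF-beta signalling, which induces Foxp3 in peripheral T cells, the median of 9 genes was 0.07. Of the 9, 1 passed as higher, against 17.4% of all genes. That gene, Tgfb3, rose by 1.19 (adjusted p = 0.031) but lay below the floor in every library.

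**Figure D4:**
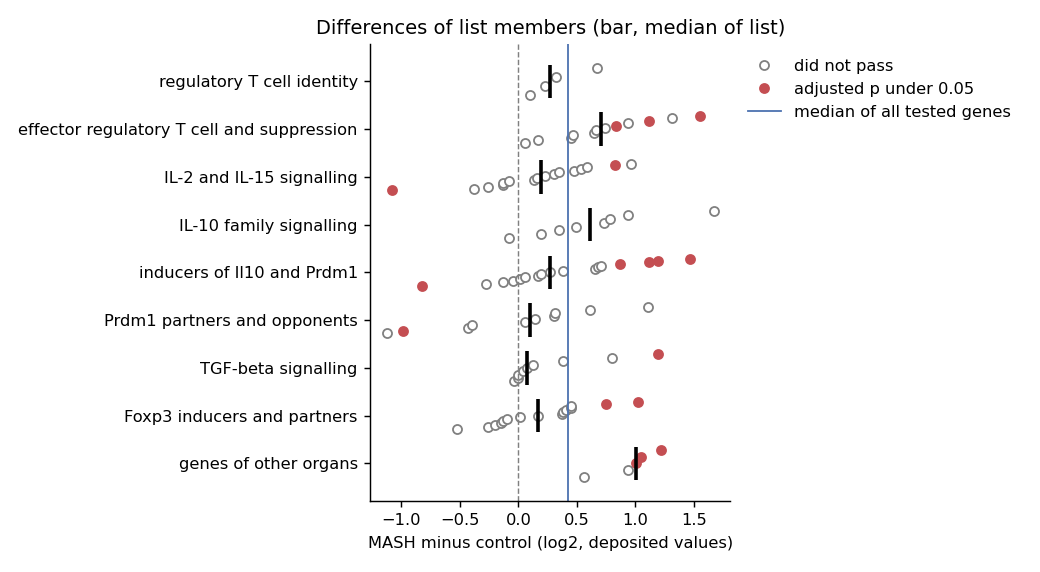
MASH minus control on the deposited log2 scale (horizontal axis) for each tested gene of 9 lists (circles; filled, adjusted p under 0.05 in limma; thick bar, median of the list). The blue line marks the median of all tested genes, 0.43, and the list of other-organ genes has its median at 1.00.

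Ratios within a library do not depend on the scale factors. The ratio of Foxp3 to Prdm1 was 1.42, 0.79 and 1.91 (log2) in control and 0.53, 0.98 and 0.41 in MASH, lower by 0.73 in MASH, a fold of 1.66 (exact two-sided permutation test, p = 0.20; adjusted p = 0.67; n = 3 each). The ratio of Foxp3 to Il10 was 0.26, -0.30 and 1.46 in control and -0.997, 0.06 and -0.15 in MASH, lower by 0.83 (exact permutation p = 0.30; adjusted p = 0.67). In both ratios control 3 was the highest library and the groups overlapped. Il10 over Prdm1 differed by 0.10 (exact permutation p = 0.90). The groups overlapped in all 10 ratios.

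Set against the mean log2 value of Cd3d, Cd3e, Cd3g and Cd4 in the same library, the groups overlapped for all 5 genes. Foxp3 stood at -1.92 ± 0.62 for control and at -2.42 ± 0.36 for MASH (SD, n = 3 each; exact permutation p = 0.40). Prdm1 stood at -3.29 ± 0.22 and -3.06 ± 0.10 (exact permutation p = 0.20), and the adjusted p was 0.50 for both over the 5 genes. These T cell genes were themselves higher in MASH on the deposited scale, Cd3g by 0.91 (adjusted p = 0.043), Cd4 by 0.79 (adjusted p = 0.044), Cd3d by 0.36 (adjusted p = 0.30) and Cd3e by 0.32 (adjusted p = 0.36). After centring on the median Cd3g stood at 0.53 (adjusted p = 0.23) and Cd4 at 0.40 (adjusted p = 0.20), and Cd3d and Cd3e turned to -0.02 and -0.06.

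**Figure D5:**
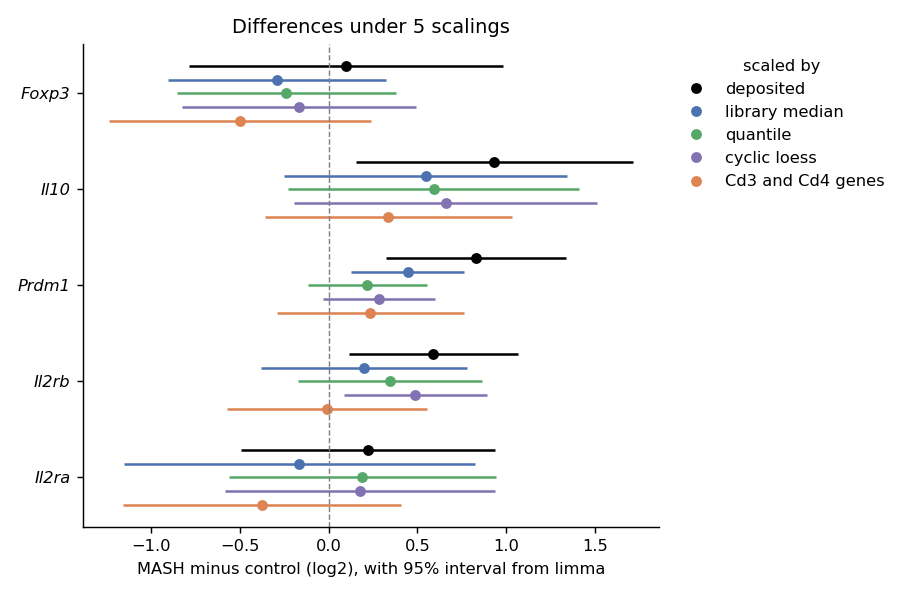
MASH minus control (log2, horizontal axis) with 95% intervals from limma for the 5 genes under the deposited scale, centring on the library median, quantile normalization, cyclic loess and centring on the Cd3 and Cd4 genes. Il10 and Prdm1 stay above 0 in all 5, Foxp3 lies below 0 in all but the deposited scale, and Il2rb falls to -0.01 against the Cd3 and Cd4 genes.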

How the data were processed

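Expression of 750 genes was deposited by the authors as log2 values, 1 column per library. The labels' protocols name a Zymo Research column kit for the RNA and give no normalization, so how the scale factors arose is unknown here. Taken out of the log, each column held whole multiples of a single step (100% of values within 0.02), which gave the counts. The 748 genes whose linear values averaged 20 or more entered limma 3.58.1 in R 4.3.3 on the deposited log2 values, with both groups in 1 fit, no covariate, trend and robust off, two-sided, Benjamini-Hochberg at 0.05. Ratios were tested by exact permutation over the 20 splits of 6 libraries. Gene symbols matched GRCm38.p6 RefSeq (734 current, 16 synonyms, 0 unmatched). Intervals and tests cover the spread between libraries, which limits the precision at 3 per group.

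The members and lists were chosen with earlier results of these data known. The rule for named genes took the members, Cd3d, Cd3e, Cd3g and Cd4, up to 4 passing and 2 other genes of each pathway list, and of each marker list the gene with the smallest p and the 2 with the highest mean. Not all of the latter are printed one by one, and Smad3, Icos, Il12a, Il27ra, Tnfrsf17, Furin, Xcr1 and Ltf were named by the rule but are not described further. Some genes that the rule or the lists hold are not reported here. The 3 nearest genes to each member were taken by root mean square difference. Il2, Il2rg, Il10ra, Bcl6, Il12b and the further passing markers of other cell types are named outside that rule, after their values were seen. Tested on simulated data (748 genes, 50 simulations, 200 changed), limma recovered 19.0% of genes changed 1.5-fold, 71.0% changed 2-fold and 99.1% changed 4-fold. Of the calls in the simulations 3.69% were false. Whether these shares hold for the deposited data, with a median difference of 0.43 (log2) and 130 higher against 7 lower calls, was not tested.

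Equal replicate numbers did not deviate together (correlations 0.02, -0.22 and -0.04). Alternatives were other scalings (library median, quantile, cyclic loess, Cd3 and Cd4 genes, counts without the factor, voom), a pseudocount of 10, a background floor, other filters (none, a mean of 50), a replicate block, each library left out, trend and robust eBayes, and a threshold of 0.1. Background subtraction, the nearest genes after quantile normalization, and control 3 and MASH 3 both left out, were added after seeing the data.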

Additional observations from a re-analysis of the deposited data

How the results depend on the processing

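Of the 5 genes, Il10 and Prdm1 kept their direction in all 21 alternatives. The threshold of 0.1, the other filters, the replicate block and trend and robust eBayes could not change a difference. Nor could the background floor for these 5 genes, which lay above it in every library. A gene that passed at 0.05 was also bound to pass at 0.1. Prdm1 passed in 10 and not in 11, and voom was the only other scaling in which it passed (0.63, limma adjusted p = 0.015). It did not pass after centring on the median (0.44), quantile normalization (0.22), cyclic loess (0.28), centring on the Cd3 and Cd4 genes (0.23), in counts without the scale factor (0.35), after background subtraction (0.75) or with the replicate block (0.83, adjusted p = 0.16). Over the fits with 1 library left out it ran from 0.73 to 0.97, Il10 from 0.64 to 1.28, Foxp3 from -0.22 to 0.44 and Il2ra from -0.077 to 0.46. Il10 passed with the background floor (0.93, adjusted p = 0.048), with a threshold of 0.1 (0.93), without MASH 3 and without control 3 and MASH 3 (1.13), and Il2rb with a threshold of 0.1 (0.59). With the floor 277 genes were called higher, against 130 on the deposited values. Foxp3 turned negative under the median (-0.29), quantile (-0.24), cyclic loess (-0.16), Cd3 and Cd4 (-0.50), unscaled counts (-0.39), voom (-0.11) and background subtraction (-0.18), and passed as higher without control 3 and MASH 3 (0.69). Il2ra turned negative under the median (-0.16), Cd3 and Cd4 (-0.37), unscaled counts (-0.26) and without control 3 and MASH 3 (-0.21), and Il2rb under Cd3 and Cd4 (-0.0086).

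The count of genes called was 137 on the deposited values, 53 under quantile normalization, 62 under cyclic loess, 34 under Cd3 and Cd4 centring, 216 in voom, 285 with the floor, 246 at 0.1, 22 after background subtraction, 475 without control 3 and MASH 3, 1 with the replicate block, and 1 to 290 with 1 library left out. Under the floor, genes below it in all libraries take on the difference of the floors themselves. Higher and lower calls were 130 and 7 on the deposited values, 108 and 36 after centring on the median, 30 and 23 under quantile normalization, 35 and 27 under cyclic loess, 11 and 23 under Cd3 and Cd4 centring, and 46 and 55 in unscaled counts. Under the block none of the 18 named calls passed, and the replicate numbers did not pair the samples in the check.

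Other named genes that did not pass turned sign. Under the median these were Cd3d (-0.025), Cd3e (-0.064), Il2rg (-0.25), Bcl6 (-0.074) and Tnfrsf4 (-0.064). Under quantile normalization they were Il2rg (-0.052), Bcl6 (-0.46) and Cd8a (-0.032), and under cyclic loess Bcl6 (-0.44). Under Cd3 and Cd4 centring they were Cd3d (-0.23), Cd3e (-0.27), Il2 (-0.062), Il2rg (-0.46), Bcl6 (-0.28), Tnfrsf4 (-0.27) and Cd8a (-0.14). In unscaled counts they were Cd3d (-0.12), Cd3e (-0.16), Il2rg (-0.35), Bcl6 (-0.17), Tnfrsf4 (-0.16) and Cd8a (-0.025). In voom it was Il2rg (-0.067), and after background subtraction Bcl6 (-1.73). Il12b, which passed on the deposited values, turned to -0.022 after background subtraction. Of the ratios within a library, Prdm1 over Il2rb went from 0.24 to -0.13 and Prdm1 over the Cd3 and Cd4 genes from 0.23 to -0.19 under quantile normalization. The causes of these changes were not tested. Of the 5 genes Prdm1 had the lowest mean count, at 186 to 301 counts per library.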
